A study of Mus musculus with 12 samples.

Results

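The genes described here are 38 mouse genes of nucleolar ribosome biogenesis, taken as a fixed list of gene symbols. The list was chosen with earlier results of these data known, so its counts beside those of all genes are descriptions. All 38 symbols matched 1 gene identifier each among the 55487 in the files, and all 38 passed the filter on low counts that left 16798 genes for testing. The tissue was the ventricular zone of the dorsal cortex, cut from mouse embryos by laser microdissection, and poly(A) RNA was sequenced in 12 libraries, 3 in each of 4 groups. The groups were E16.5 p18mKO2+, E16.5 p18mKO2-, E13.5 p18mKO2+ and E13.5 p18mKO2-, where E13.5 and E16.5 are embryonic days. The p18mKO2+ libraries are labelled as over-expression of p18mKO2, a cassette in ROSA26 that makes the CDK inhibitor p18 (product of Cdkn2c) and the fluorescent protein mKO2 once Cre has removed a stop. The p18mKO2- libraries are labelled normal. All 4 groups were given tamoxifen, the controls too. The Cre driver, the strain and whether a library is 1 embryo or a pool are not stated in the labels. Each p-value sets a difference between group means against the spread of these 12 libraries within their groups. Some of that spread may be technical, and it need not be the spread between embryos.

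The nucleolus is where ribosomes are made. RNA polymerase I copies the ribosomal DNA into a long precursor RNA, small nucleolar RNPs (snoRNPs) modify it and help to cut it, and assembly factors build the small and the large ribosomal subunit around it. MYC proteins are known activators of many of these genes, and growing, dividing cells are known for a high demand for new ribosomes.

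Libraries held between 17101953 and 21837090 estimated counts. The added p18 was not visible as a change in Cdkn2c counts at either stage, with a log2 change of 0.14 ± 0.26 at E13.5 (SE; edgeR adjusted p = 0.798) and 0.32 ± 0.26 at E16.5 (adjusted p = 1). Xist and Y-linked transcripts differed with the groups. The 3 E13.5 p18mKO2- libraries had Xist and almost no Y-linked counts. E13.5 p18mKO2+ replicate 1 had Xist alone, E13.5 p18mKO2+ replicate 2 had Y-linked transcripts, and replicate 3 of both p18mKO2+ groups had both. E16.5 p18mKO2+ replicates 1 and 2 and E16.5 p18mKO2- replicate 2 had Y-linked transcripts and little Xist. E16.5 p18mKO2- replicates 1 and 3 had Xist and almost no Y-linked counts. A ribosomal RNA gene, CT010467.1, took 1.79 to 3.97% of counts in E16.5 p18mKO2+ and 6.28 to 13.6% in E16.5 p18mKO2-, and 2.81 to 6.64% in E13.5 p18mKO2+ against 5.32 to 8.80% in E13.5 p18mKO2-. All 9 dorsal ventricular zone markers examined, among them Pax6, Emx1 and Sox2, were detected in every group.

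The 38 genes differed widely in level, compared here as TPM, which corrects for length. In E13.5 p18mKO2- libraries Npm1, which encodes the histone chaperone nucleophosmin, stood highest at 1689 ± 122 TPM (SD, n = 3). It was followed by Nop56 at 454 ± 99.5 TPM and by Ncl, which encodes nucleolin, at 364 ± 10.2 TPM. The intervals of Nop56 and Ncl overlap, so their order is not resolved. The lowest 2 were Myc at 12.6 ± 4.18 TPM and Rrp12, a small subunit export factor, at 9.32 ± 1.82 TPM. Npm1 ranked first of the 38 in each of the 4 groups. Uncertainty in assigning reads between genes, as the authors' RSEM estimates it, was at most 0.88% of the count of any of the 38 genes in any library (Fbl).

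**Figure D1:**
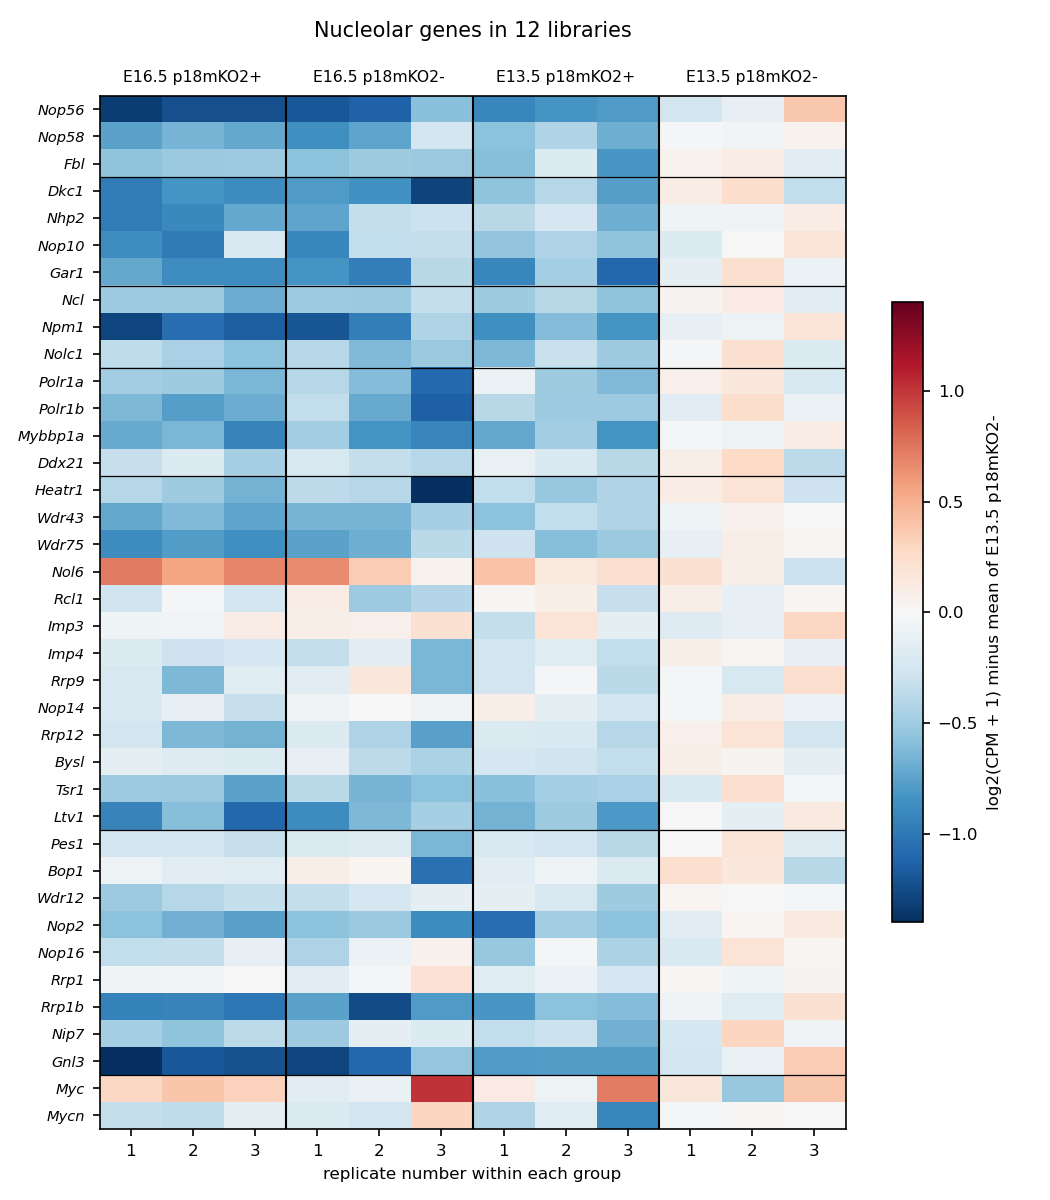
Level of each of the 38 genes (rows, grouped by role from snoRNP proteins at the top to the MYC genes at the bottom) in each library (columns), as log2(CPM + 1) minus the mean of the 3 E13.5 p18mKO2- libraries. Blue fills most rows of the 9 libraries left of E13.5 p18mKO2-, while the row of Nol6 is red to near white in the same libraries.

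At E13.5 most nucleolar genes were lower in p18mKO2+ than in p18mKO2- tissue, and no member was called higher. Of the 38 genes, 16 fell (edgeR quasi-likelihood, Benjamini-Hochberg adjusted p under 0.05 over all 16798 genes), where 3.49% of all genes tested were called lower and 7.29% higher (10.8% in either direction). The median log2 change was -0.46 over the 38 genes and 0.01 over all genes tested. In 27 of the 38 genes all 3 p18mKO2+ libraries lay below all 3 p18mKO2- libraries, which held for 14.1% of all genes tested, and in none did they lie above, which held for 16.6%. Fitted changes of 36 of the 38 genes were negative, against 49.4% of all genes. The 36 genes other than Myc and Mycn summed to 3058, 3186 and 3486 CPM in p18mKO2+ libraries, against 4546, 4811 and 4813 CPM in p18mKO2- libraries (CPM is the count relative to library size, scaled by TMM). The 3 p18mKO2+ sums thus lay below the 3 p18mKO2- sums.

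The number of calls at E13.5 depended on single libraries. It was 1 without p18mKO2+ replicate 1, 2 without p18mKO2+ replicate 3, and 10, 6 and 7 without p18mKO2- replicates 1, 2 and 3. A fit with no library of mixed sex gave 1, adjusting for Y-linked expression gave 1, and adjusting for the level of CT010467.1 gave 3. Between 31 and 36 of the 38 changes were negative under all 23 alternatives, whose medians lay between -0.51 and -0.34. The call of Nop56 was lost under 1 of the 23, that of Wdr75 under 15, Tsr1 under 14, Fbl and Dkc1 under 13 each and Nolc1 under 12, and those of the other 10 genes under 5 to 9.

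Other transcripts moved with the same groups, where 3.49% of all genes tested were called lower and 7.29% higher. Of 20 S phase genes 16 fell, and their summed level was 1407 to 2024 CPM in p18mKO2+ against 2791 to 3240 CPM in p18mKO2- libraries. Of 12 pan-neuronal markers 7 rose, summing to 4363 to 6398 against 2296 to 2788 CPM. Of 9 dorsal ventricular zone markers 4 fell (1551 to 2192 against 2513 to 2870 CPM), of 7 erythroid markers 2 fell (493 to 816 against 1347 to 1392 CPM), and of 8 endothelial and pericyte markers 2 rose (177 to 199.5 against 119 to 169 CPM). Of 9 ventral telencephalon and GABA markers 1 rose (504 to 730 against 146 to 420 CPM). None of the 4 intermediate progenitor, 6 microglia and 7 Cajal-Retzius, hem and choroid markers was called. No marker of these lists was at 0 throughout an E13.5 group, and their part in the fall of the nucleolar genes was not tested. In tissue of mixed cells, fewer cells of a type and less RNA per cell cannot be told apart.

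**Figure D2:**
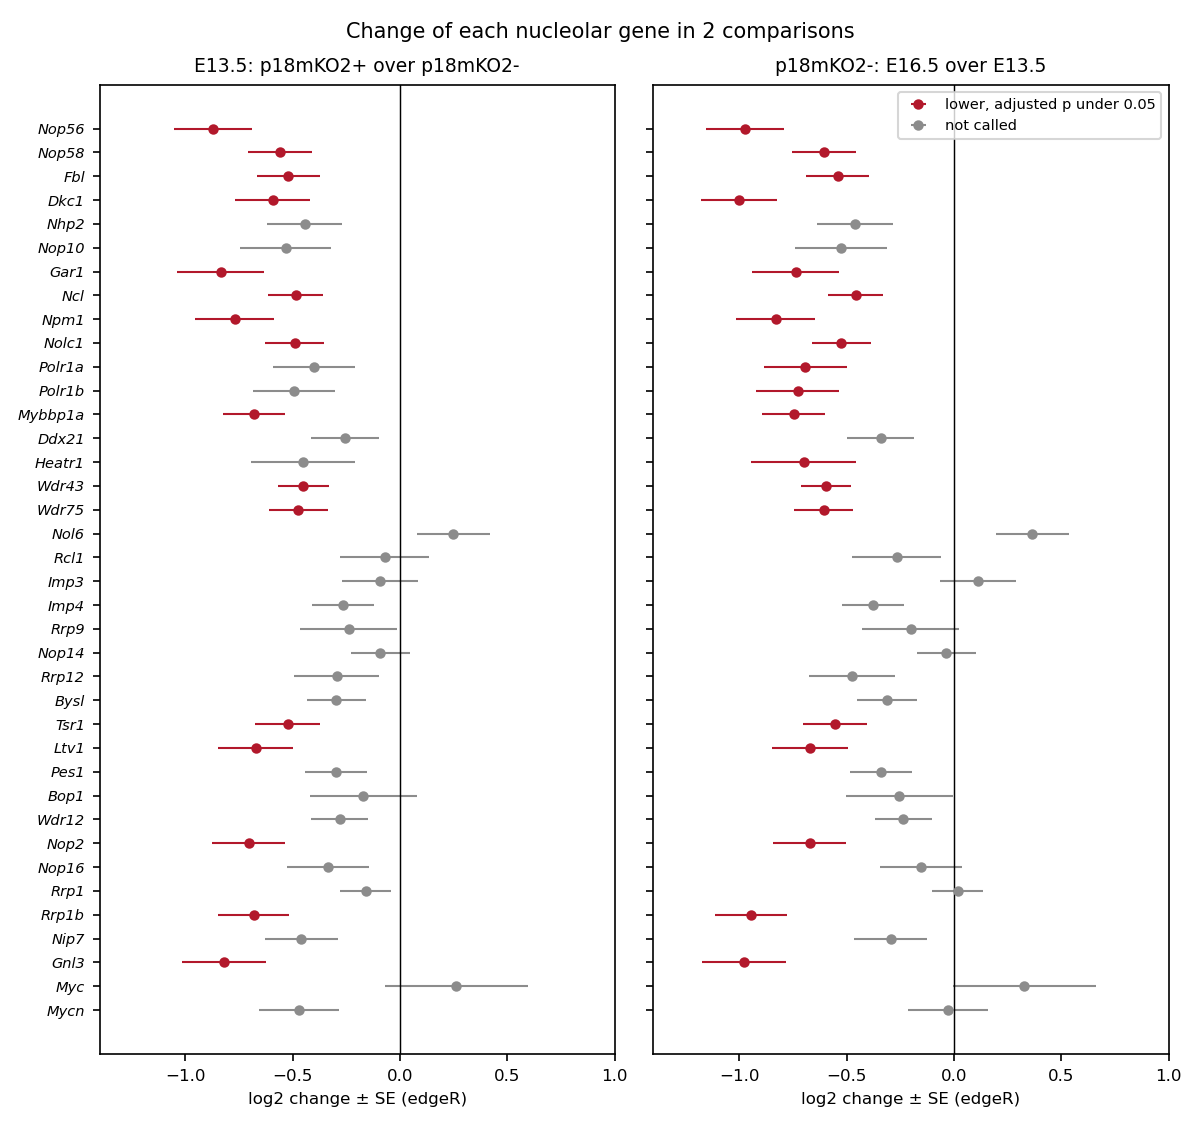
log2 change with SE of each gene for p18mKO2+ over p18mKO2- at E13.5 (left) and for E16.5 over E13.5 in p18mKO2- tissue (right), with genes called lower in red. The 2 panels share the E13.5 p18mKO2- libraries; 16 genes are red on the left and 19 on the right, and no gene is called higher.

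The 3 box C/D snoRNP genes among the 38, whose particle carries out RNA methylation in the nucleolus, were called lower in E13.5 p18mKO2+ tissue. Of all genes tested 3.49% were called lower. Snu13, which encodes the remaining core protein of the particle and is not one of the 38, stood at -0.34 ± 0.15 (log2, SE) with overlapping groups and was not called (edgeR adjusted p = 0.172). It was singled out after its value was seen. Nop56, a core scaffold of that particle (chromosome 2, 130274430 to 130279313, GRCm38), stood at 167, 177 and 180.5 CPM in p18mKO2+ libraries, against 262, 290.5 and 407 CPM in p18mKO2- libraries. Its groups did not overlap, and p18mKO2- replicate 3 was the highest library. Its log2 change of -0.87 ± 0.18 was the largest fall of the 38 (SE; edgeR adjusted p = 0.00849). It was called under 22 of 23 alternatives, and after adjusting for Y-linked expression its change was -0.81 (edgeR adjusted p = 0.0659). Its paralogue Nop58 stood at 129, 143 and 119 CPM in p18mKO2+, against 190, 188 and 199.5 CPM in p18mKO2- libraries, a change of -0.56 ± 0.15. Fbl, which encodes the methyltransferase fibrillarin, stood at 88.3, 117.5 and 75.9 CPM against 139, 145 and 121 CPM, again without overlap (-0.52 ± 0.15; edgeR adjusted p = 0.0383).

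Of the 38 genes, 7 had snoRNA genes inside their own span on the same strand in the GENCODE M21 annotation, which was so for 1.6% of the genes tested. They were Nop56, Nop58, Dkc1, Ncl, Wdr43, Tsr1 and Gnl3. All 7 were among the 16 genes that fell at E13.5, whereas 9 of the other 31 members fell. Of the 261 snoRNA hosts outside the 38 genes 6.51% fell, against 3.49% of all genes tested. This split was made after the values were seen and carries no test. The host values are those of the host's spliced mRNA and say nothing of the level of the snoRNA. A snoRNA from each of 5 of these hosts is shown, to let the box C (TGATGA) and box D (CTGA) motifs that NOP56, NOP58 and fibrillarin assemble on be seen in capitals (GENCODE M21, GRCm38, letters of DNA, 5′ to 3′).
Snord110 in Nop56, chr2:130275506-130275573, plus strand: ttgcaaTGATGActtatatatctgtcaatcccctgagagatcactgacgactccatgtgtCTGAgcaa
Snord11 in Nop58, chr1:59704790-59704873, plus strand: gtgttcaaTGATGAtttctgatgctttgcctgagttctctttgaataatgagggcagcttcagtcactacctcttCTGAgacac
Snord82 in Ncl, chr1:86356261-86356330, minus strand: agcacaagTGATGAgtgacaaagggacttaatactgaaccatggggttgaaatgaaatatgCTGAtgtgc
Snord92 in Wdr43, chr17:71631281-71631365, plus strand: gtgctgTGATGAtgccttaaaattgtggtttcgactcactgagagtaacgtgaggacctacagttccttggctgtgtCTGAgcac
Snord69 in Gnl3, chr14:31014287-31014366, minus strand: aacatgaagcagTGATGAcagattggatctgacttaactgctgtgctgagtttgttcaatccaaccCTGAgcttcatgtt
These 5 were shown because TGATGA starts within their first 20 bases and CTGA lies within their last 15. Of the 10 named Snord genes inside the 38 genes, the other 5 (Snord19, Snord53, Snord57, Snord70 and Snord91a) lacked at least 1 of these exact letters in these windows.

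Genes of the box H/ACA snoRNP, which converts uridine to pseudouridine, were lower in E13.5 p18mKO2+ libraries without overlap in 4 of 4 cases, and 2 were called. Of all genes tested 14.1% lay lower in this way and 3.49% were called lower. Gar1 stood at 24.0, 32.9 and 20.9 CPM in E13.5 p18mKO2+, against 41.7, 53.9 and 43.3 CPM in E13.5 p18mKO2- libraries, a log2 change of -0.84 ± 0.20 (SE; edgeR adjusted p = 0.0179). Dkc1, the pseudouridine synthase dyskerin, lies on the X chromosome and stood at 62.0, 69.5 and 53.5 CPM in p18mKO2+, against 98.7, 109 and 71.8 CPM in p18mKO2- libraries. Its change was -0.59 ± 0.18 (edgeR adjusted p = 0.0458). Nop10 and Nhp2, the small structural proteins of the particle, changed by -0.53 ± 0.21 and -0.44 ± 0.18 and were not called.

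The abundant nucleolar phosphoproteins all fell at E13.5, where 3.49% of all genes tested were called lower. Npm1 stood at 642.5, 765 and 656.5 CPM in E13.5 p18mKO2+ libraries, against 1078, 1114 and 1329 CPM in E13.5 p18mKO2- libraries. The highest p18mKO2+ library was well below the lowest p18mKO2- library, and the log2 change was -0.77 ± 0.18 (SE; edgeR adjusted p = 0.0167). Ncl, which binds ribosomal RNA precursors, stood at 571, 619 and 548 CPM against 831, 874.5 and 729 CPM (-0.49 ± 0.13). Nolc1, a chaperone of snoRNPs, stood at 86.4, 108 and 94.6 CPM against 131, 157 and 117 CPM (-0.49 ± 0.14). For both genes every p18mKO2+ library was below every p18mKO2- library.

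The catalytic core of RNA polymerase I was less clear. Polr1a, the largest subunit, stood at 55.6, 41.5 and 38.3 CPM in E13.5 p18mKO2+, against 62.0, 65.8 and 50.7 CPM in E13.5 p18mKO2- libraries. Replicate 1 of p18mKO2+ lay inside the p18mKO2- range, and the change of -0.40 ± 0.19 was not called (SE; edgeR adjusted p = 0.212). Polr1b, the second-largest subunit, stood at 33.0, 30.4 and 30.3 CPM against 38.8, 51.8 and 41.2 CPM without overlap (-0.49 ± 0.19, not called). Mybbp1a, a MYB-binding nucleolar protein that regulates ribosomal DNA transcription, did fall, with 122.8, 144 and 113.5 CPM against 199, 192 and 218 CPM (-0.68 ± 0.15; edgeR adjusted p = 0.00973). The RNA helicase gene Ddx21 stood at -0.26 ± 0.16 and was not called.

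Of 13 small subunit factors 12 had a negative change at E13.5, against 49.4% of all genes tested. In 7 of the 13 the p18mKO2+ libraries lay lower without overlap, against 14.1% of all genes. The 4 called lower, against 3.49% of all genes, were Ltv1 (-0.67 ± 0.18; log2, SE), Tsr1 (-0.52 ± 0.15), Wdr75 (-0.47 ± 0.14) and Wdr43 (-0.45 ± 0.12). Ltv1 and Tsr1 act late, on small subunit precursors in the cytoplasm, and Wdr43 and Wdr75 act early, on the nascent precursor RNA. Wdr43 stood at 57.4, 67.5 and 64.0 CPM in E13.5 p18mKO2+ against 82.7, 89.9 and 85.5 CPM in E13.5 p18mKO2- libraries. Heatr1, which also acts on the nascent precursor, stood at 44.0, 38.6 and 41.7 CPM against 60.3, 64.0 and 45.7 CPM and was not called (-0.45 ± 0.24). Nearest to 0 were Rcl1 at -0.07 ± 0.21, Imp3 at -0.09 ± 0.18 and Nop14 at -0.09 ± 0.14. Nol6, a small subunit processome factor, was the 1 gene besides Myc with a positive change, at 66.5, 55.2 and 58.6 CPM against 58.3, 52.9 and 40.5 CPM (0.25 ± 0.17, not called, groups overlapping).

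All 9 large subunit factors had a negative change at E13.5, and 7 lay lower in p18mKO2+ libraries without overlap. Of the 9, 3 were called lower. Over all genes tested 49.4% were negative, 14.1% lay lower without overlap and 3.49% were called lower. Gnl3, which encodes the stem cell and progenitor GTPase nucleostemin, stood at 55.1, 55.9 and 55.6 CPM in E13.5 p18mKO2+ libraries, against 80.2, 90.5 and 124 CPM in E13.5 p18mKO2- libraries. The 3 p18mKO2+ values were close together and below all p18mKO2- values (log2 change -0.82 ± 0.20, SE; edgeR adjusted p = 0.0167). Nop2, a ribosomal RNA cytosine methyltransferase, stood at 27.1, 40.9 and 38.4 CPM against 51.5, 59.0 and 63.1 CPM (-0.71 ± 0.17), and Rrp1b at 30.5, 36.3 and 35.4 CPM against 52.6, 48.4 and 63.1 CPM (-0.68 ± 0.16). Its paralogue Rrp1 stood at -0.16 ± 0.12. The PeBoW complex, which processes the large subunit precursor, had no member called. Pes1 stood at 68.8, 65.9 and 60.9 CPM against 79.8, 90.3 and 70.5 CPM (-0.30 ± 0.14), Wdr12 at -0.28 ± 0.13 and Bop1 at -0.17 ± 0.25. Nip7 (-0.46 ± 0.17) and Nop16 (-0.34 ± 0.19) were not called either.

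The 2 MYC genes did not move with these genes as a pair. Mycn, the main family member of neural progenitors, stood at 107, 127 and 75.4 CPM in E13.5 p18mKO2+ libraries, against 141, 145 and 144 CPM in E13.5 p18mKO2- libraries. The groups did not overlap, p18mKO2+ replicate 3 was lowest, and the log2 change of -0.47 ± 0.19 was not called (SE; edgeR adjusted p = 0.127). Myc stood at 16.6, 14.5 and 25.7 CPM against 17.1, 10.3 and 20.1 CPM, with overlapping groups (0.26 ± 0.33). In the MYC network, a list of 10 partners and antagonists, Mxd4 (0.97 ± 0.18; edgeR adjusted p = 0.00423), which encodes a MAX-binding repressor, and Mycl (0.88 ± 0.17), a further MYC family gene, rose. Mxd3 (-0.81 ± 0.20), another MAX-binding repressor gene, fell.

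The E-box CACGTG, the textbook binding sequence of MYC with MAX, was searched for in RefSeq promoters (GRCm38.p6), which run from 250 bases before to 50 after each start. It reads the same on both strands. Of the 32 members with a promoter entry 7 held it (21.9%), against 8.09% of all 27025 genes with one. Those 7 were Mybbp1a, Nop2, Wdr43, Ltv1, Tsr1, Pes1 and Imp4. Of the other motifs searched on both strands, some stood more percentage points above their share of all promoters. ACTTCCG was in 31.2% of the members against 7.2%, CACGCG in 31.2% against 10.5% and GGGCGG in 71.9% against 38.2%. The E-box is shown for its known link to MYC and not for its frequency. The promoters of Mybbp1a, Nop2 and Wdr43 are shown with the E-box in capitals, beside that of Nop56, the member with the largest fall, which has none in this window.
Mybbp1a, chr11:72441077-72441376, plus strand: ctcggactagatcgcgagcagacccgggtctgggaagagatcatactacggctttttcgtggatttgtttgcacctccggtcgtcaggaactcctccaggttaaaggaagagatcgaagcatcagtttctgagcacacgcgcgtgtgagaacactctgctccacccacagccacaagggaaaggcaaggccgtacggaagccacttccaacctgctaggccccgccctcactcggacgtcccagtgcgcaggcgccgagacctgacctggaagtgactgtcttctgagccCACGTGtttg
Nop2, chr6:125131633-125131932, plus strand: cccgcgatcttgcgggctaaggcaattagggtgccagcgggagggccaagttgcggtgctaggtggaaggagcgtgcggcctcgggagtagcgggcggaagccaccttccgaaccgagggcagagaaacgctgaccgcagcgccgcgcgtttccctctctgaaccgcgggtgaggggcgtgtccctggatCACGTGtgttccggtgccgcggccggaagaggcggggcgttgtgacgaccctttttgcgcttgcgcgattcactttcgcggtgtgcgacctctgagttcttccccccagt
Wdr43, chr17:71615965-71616264, plus strand: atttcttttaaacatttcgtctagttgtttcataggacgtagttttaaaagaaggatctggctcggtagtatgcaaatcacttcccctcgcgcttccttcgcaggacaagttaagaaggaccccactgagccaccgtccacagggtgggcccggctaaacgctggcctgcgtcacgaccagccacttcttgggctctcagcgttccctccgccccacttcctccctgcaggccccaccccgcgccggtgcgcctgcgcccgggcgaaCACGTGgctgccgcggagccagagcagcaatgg
Nop56, chr2:130274162-130274461, plus strand: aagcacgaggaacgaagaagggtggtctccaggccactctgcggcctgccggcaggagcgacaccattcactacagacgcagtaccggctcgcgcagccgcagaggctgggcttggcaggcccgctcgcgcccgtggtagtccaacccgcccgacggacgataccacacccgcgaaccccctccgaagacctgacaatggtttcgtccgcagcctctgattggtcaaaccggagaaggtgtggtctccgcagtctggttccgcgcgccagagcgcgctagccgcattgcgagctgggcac
The E-box starts 41 bases into the transcript in Mybbp1a, 60 bases before the start in Nop2 (position -60) and 18 bases into the transcript in Wdr43, counted from 1 at the RefSeq start. A match describes the letters and is not evidence of binding.

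**Figure D3:**
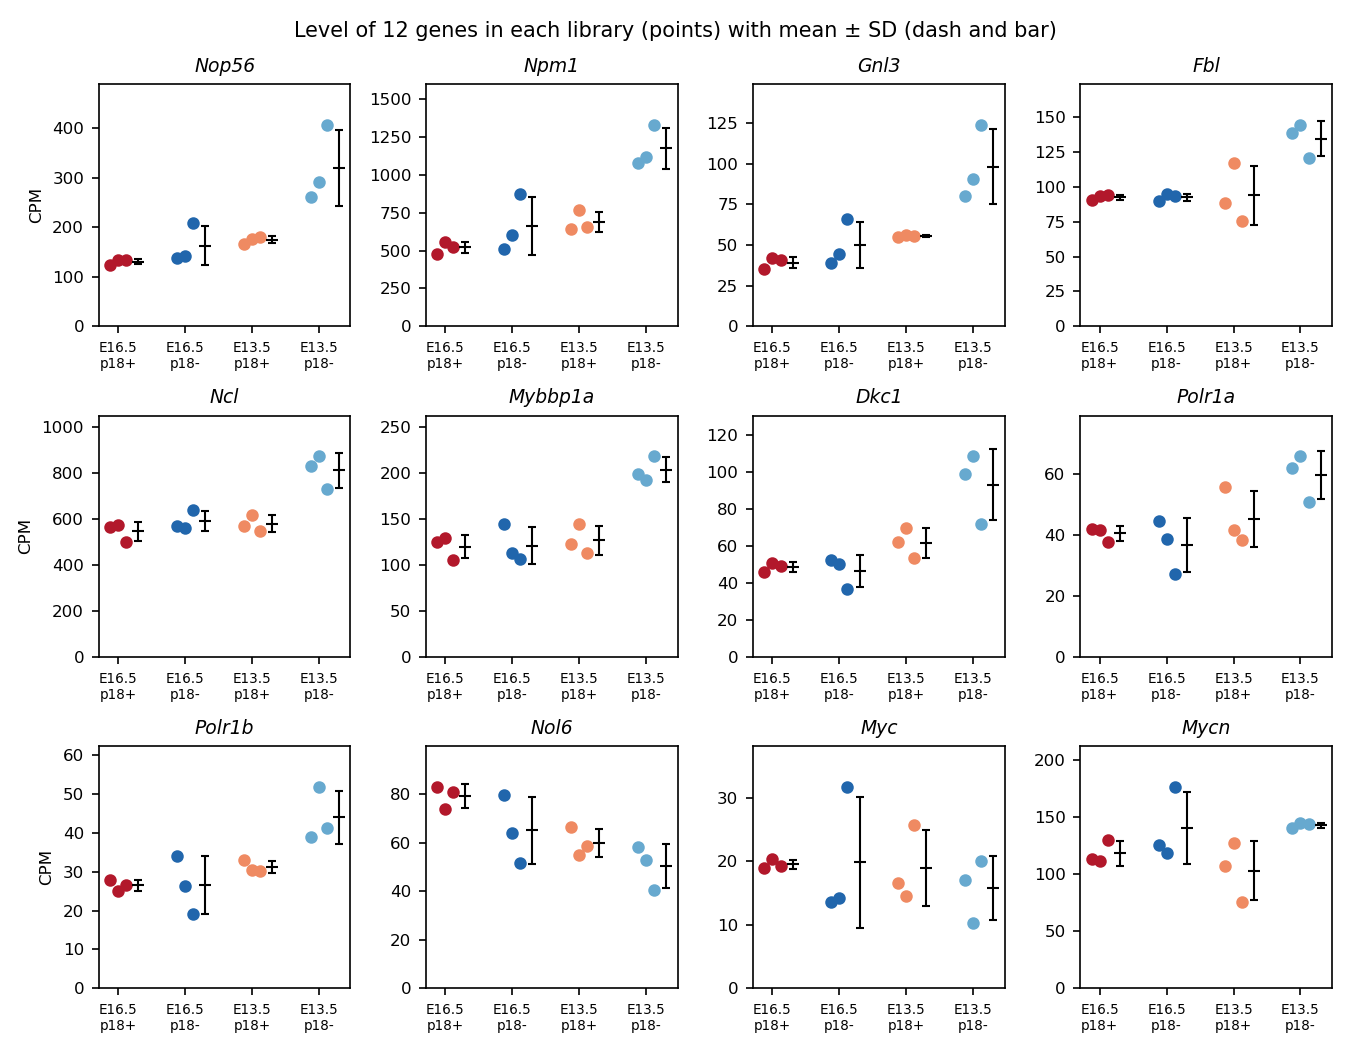
CPM of 12 of the genes in each library (points, from left E16.5 p18mKO2+, E16.5 p18mKO2-, E13.5 p18mKO2+ and E13.5 p18mKO2-) with the group mean and SD (n = 3 each). For Nop56, Npm1, Gnl3, Fbl, Ncl and Mybbp1a the 3 E13.5 p18mKO2- points lie above the 3 points of every other group, and for Myc all groups overlap.

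At E16.5 no nucleolar gene was called between p18mKO2+ and p18mKO2- tissue. edgeR called 0 of the 38, with 1 at an unadjusted p under 0.05, where 0% of all genes tested were called; DESeq2 and limma-voom also called 0 of the 38. The 36 genes summed to 2848, 2896 and 3003 CPM in p18mKO2+ libraries, against 2991, 3055 and 3475 CPM in p18mKO2- libraries, and the ranges overlap. The median log2 change was -0.06, against -0.01 over all genes, and 27 of the 38 changes were negative, against 51.9% of all genes. The direction was not stable, since on log2(TPM + 1) the median was 0.25 with 4 of 38 changes negative, where the median of all genes was 0.23. Nop56 stood at 125, 133 and 134 CPM in p18mKO2+ against 137, 142 and 209 CPM in p18mKO2- libraries, without overlap (-0.32 ± 0.18, SE; edgeR adjusted p = 1). Wdr75 (-0.25 ± 0.14) and Nop14 (-0.19 ± 0.14) were the other 2 genes without overlap, against 3.88% of all genes tested that lay lower and 4.07% that lay higher in this way. Fbl was nearly level, at 90.5, 93.2 and 94.1 CPM against 89.7, 94.6 and 93.2 CPM (0.00 ± 0.15). Mycn stood at 113, 111 and 130 CPM against 125, 119 and 177 CPM (-0.25 ± 0.19). With SE between 0.12 (Wdr43) and 0.33 (Myc) for single genes, a missed threshold does not show that the genes were equal. All 9 ventral telencephalon and GABA markers had a positive change at E16.5 (median 1.375), 7 of them without overlap, and none was called. The medians were -0.01 for S phase genes and -0.13 for pan-neuronal markers. The part of these lists was not tested.

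Averaged over both stages, 3 of the 38 genes were lower in p18mKO2+ tissue, where 0.393% of all genes were called lower and 1.83% higher (2.23% in either direction). The median log2 change over the 38 genes was -0.25, and 36 of the 38 changes were negative, against 49.2% of all genes. On log2(TPM + 1) that median was -0.03 with 22 of 38 changes negative, where all genes stood at 0.19. The 3 genes called were Nop56 (-0.60 ± 0.13, log2, SE, edgeR adjusted p = 0.0313), Npm1 (-0.56 ± 0.13) and Gnl3 (-0.58 ± 0.14). None of the 3 was called without E13.5 p18mKO2+ replicate 1 or 3, E13.5 p18mKO2- replicate 3, E16.5 p18mKO2+ replicate 1, 2 or 3, or E16.5 p18mKO2- replicate 2, and 1 was called without E13.5 p18mKO2- replicate 2. The difference of the p18 effect, E16.5 minus E13.5, was positive for 35 of the 38 genes with a median of 0.38, against -0.03 over all genes. edgeR called 0 of these differences (10 at an unadjusted p under 0.05), where 2.7% of all genes were called (2.4% lower, 0.298% higher) and 52.3% were negative; limma-voom called 0 and DESeq2 called 1, Mybbp1a. For Mybbp1a the difference was 0.67 ± 0.21 (edgeR adjusted p = 0.106), and for Nop56 0.55 ± 0.26 (adjusted p = 0.307). Without E16.5 p18mKO2- replicate 1 edgeR called 1 difference, of Mybbp1a, and without E16.5 p18mKO2- replicate 3 it called 1, of Nop58. The fall at E13.5 is thus not shown to differ from the change at E16.5 in the fit of all 12 libraries.

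In p18mKO2- tissue nucleolar genes fell with embryonic stage. Of the 38 genes 19 fell and none rose, where 13.4% of all genes tested were called lower and 16.4% higher (29.8% in either direction). The median log2 change, E16.5 over E13.5, was -0.50, against -0.02 over all genes, and 34 of the 38 changes were negative, against 51.3% of all genes. In 24 of the 38 genes every E16.5 library lay below every E13.5 library, which held for 19.4% of all genes, while 21% lay above. This comparison shares its E13.5 p18mKO2- libraries with the p18 effect at E13.5. Without E13.5 p18mKO2- replicate 2 the number that fell was 11, and over the other alternatives it lay between 15 and 23. The values given for this comparison come from the fit without the replicate number as a block. With that block the number that fell was 23, with Nop10, Imp4, Rrp12 and Pes1 called as well.

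Dkc1 had the largest stage change, with 52.3, 50.5 and 36.7 CPM in E16.5 p18mKO2- libraries, against 98.7, 109 and 71.8 CPM in E13.5 p18mKO2- libraries (log2 change -1.0 ± 0.18, SE; edgeR adjusted p = 0.000814). Gnl3 stood at 39.1, 44.5 and 65.8 CPM against 80.2, 90.5 and 124 CPM, and E16.5 replicate 3 was the highest of its group (-0.98 ± 0.20). Nop56 stood at 137, 142 and 209 CPM against 262, 290.5 and 407 CPM (-0.97 ± 0.18). In each of these genes the stages did not overlap. Rrp1b changed by -0.95 ± 0.17, with the smallest adjusted p of the 38 (0.000736, edgeR), at 31.9, 22.3 and 31.1 CPM against 52.6, 48.4 and 63.1 CPM. Npm1 stood at 507, 599 and 874 CPM against 1078, 1114 and 1329 CPM (-0.83 ± 0.18), Mybbp1a at 144, 113 and 106 CPM against 199, 192 and 218 CPM (-0.75 ± 0.15), and Wdr43 at 54.3, 54.4 and 62.1 CPM against 82.7, 89.9 and 85.5 CPM (-0.60 ± 0.12). Here too no library of one stage reached the range of the other.

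Both RNA polymerase I subunits fell with stage. Polr1a stood at 44.6, 38.5 and 27.2 CPM in E16.5 p18mKO2- libraries, against 62.0, 65.8 and 50.7 CPM in E13.5 p18mKO2- libraries (-0.69 ± 0.19, log2, SE; edgeR adjusted p = 0.0147). Polr1b stood at 34.1, 26.4 and 19.2 CPM against 38.8, 51.8 and 41.2 CPM (-0.73 ± 0.19). Heatr1 stood at 43.3, 42.1 and 19.2 CPM against 60.3, 64.0 and 45.7 CPM (-0.70 ± 0.25; edgeR adjusted p = 0.0444), a call that 13 of 23 alternatives ended. In all 3 genes E16.5 replicate 3 was lowest. The other genes that fell were Wdr75, Nop58, Nop2, Ltv1, Nolc1, Tsr1, Fbl, Gar1 and Ncl, with changes between -0.74 (Gar1) and -0.46 (Ncl). Mycn was nearly level, at 125, 119 and 177 CPM against 141, 145 and 144 CPM (-0.03 ± 0.19), and Rrp1 stood at 0.02 ± 0.12. Nol6 was at 79.6, 64.1 and 51.9 CPM against 58.3, 52.9 and 40.5 CPM (0.37 ± 0.17, not called), and Myc at 13.6, 14.2 and 31.7 CPM against 17.1, 10.3 and 20.1 CPM (0.33 ± 0.33, not called). Under 1 of the 23 alternatives Nol6 was called higher.

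Between the stages, p18mKO2- tissue also differed in the cell cycle and neuronal lists. Of all genes tested 13.4% were called lower and 16.4% higher. All 20 S phase genes fell, with summed levels of 917 to 1453 CPM at E16.5 against 2791 to 3240 CPM at E13.5. Of 12 pan-neuronal markers 10 rose (6589 to 8590 against 2296 to 2788 CPM), of 9 dorsal ventricular zone markers 7 fell and 1 rose (1358 to 1875 against 2513 to 2870 CPM), and of 7 erythroid markers 4 fell (361 to 575.5 against 1347 to 1392 CPM). Of 9 ventral telencephalon and GABA markers 3 fell (152 to 248 against 146 to 420 CPM), and of 8 endothelial and pericyte markers 2 rose (233 to 249.1 against 119 to 169 CPM). Of 4 intermediate progenitor markers 2 fell and 1 rose, and of 6 microglia markers 1 rose. Of 7 Cajal-Retzius, hem and choroid markers 3 fell. The part of these lists in the stage change was not tested.

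In p18mKO2+ tissue no nucleolar gene was called between the same stages in the fit of all 12 libraries. edgeR called 0 of the 38 (6 at an unadjusted p under 0.05), where 1.64% of all genes tested were called (0.554% lower, 1.08% higher); DESeq2 and limma-voom called 0, and a fit of these 6 libraries alone called 2, Nop56 and Gnl3. The 36 genes summed to 2848, 2896 and 3003 CPM at E16.5, against 3058, 3186 and 3486 CPM at E13.5, without overlap. Nop56 stood at 125, 133 and 134 CPM at E16.5 against 167, 177 and 180.5 CPM at E13.5, again without overlap (-0.42 ± 0.18, log2, SE; edgeR adjusted p = 0.292). Gnl3 stood at 35.0, 41.8 and 40.9 CPM against 55.1, 55.9 and 55.6 CPM (-0.50 ± 0.20; edgeR adjusted p = 0.241). Ncl stood at 567, 574 and 499 CPM against 571, 619 and 548 CPM, with overlap (-0.08 ± 0.13). The median over the 38 genes was -0.09, against -0.03 over all genes, and 26 of the 38 changes were negative, against 53.6% of all genes. In 9 of the 38 genes every E16.5 library lay below every E13.5 library, and in 3 above. This held for 2264 and 2200 of the 16798 genes tested. The contrast with the stage change in p18mKO2- tissue is the difference of the p18 effect, for which edgeR called 0 of the 38.

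The wider pathway was described by 116 other ribosome biogenesis genes, all of which passed the filter. At E13.5, 13 of them were lower in p18mKO2+ tissue and none higher, with a median log2 change of -0.29. Over all genes tested 3.49% were called lower and 7.29% higher. Of 46 other small subunit genes 7 fell, led by Lyar (-0.82 ± 0.16, SE; edgeR adjusted p = 0.00626), Wdr46 (-0.65 ± 0.15) and Pno1 (-0.73 ± 0.17). Of 50 other large subunit genes 4 fell, led by Ftsj3 (-0.63 ± 0.12), a ribosomal RNA methyltransferase, Noc2l (-0.59 ± 0.12) and Sdad1 (-0.52 ± 0.13). Of 13 other RNA polymerase I genes 1 fell, Taf1d (-0.75 ± 0.23), a subunit of its promoter selectivity factor. Of 7 snoRNP assembly factors 1 fell, Naf1 (-0.63 ± 0.17), which assembles H/ACA particles. At E16.5 none of the 116 was called in p18mKO2+ against p18mKO2- (edgeR; 1 at an unadjusted p under 0.05). With stage, 30 of the 116 fell in p18mKO2- tissue and 1 rose, Rrn3 (0.36 ± 0.11), an RNA polymerase I initiation factor. Lyar (-1.11 ± 0.165) led that fall. With stage in p18mKO2- tissue 13.4% of all genes tested were called lower and 16.4% higher.

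**Figure D4:**
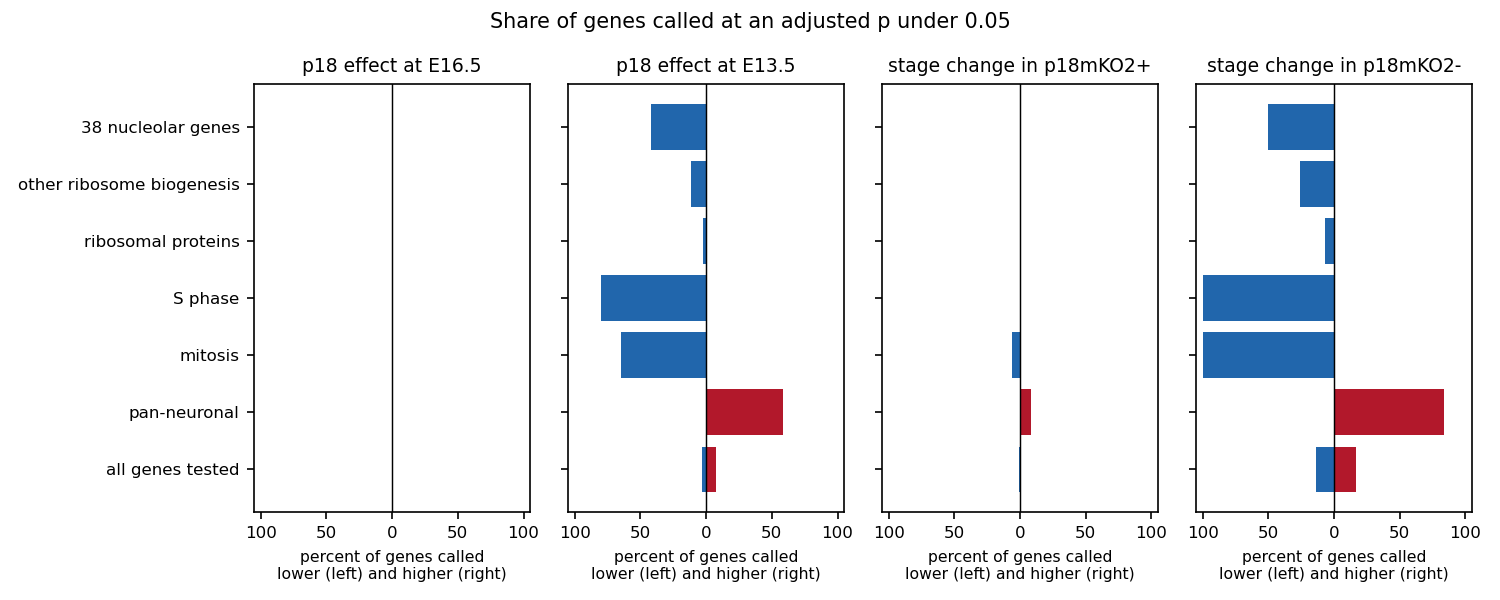
Percent of genes of each list called lower (blue, left of 0) and higher (red, right of 0) in 4 comparisons, where the p18 effect is p18mKO2+ over p18mKO2- and the stage change is E16.5 over E13.5. At E13.5 16 of 38 nucleolar genes, 13 of 116 other biogenesis genes and 1 of 46 ribosomal proteins were called lower, and the E16.5 panel has no calls.

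The proteins of the finished ribosome, a list of 46 cytosolic ribosomal protein genes, had a median close to that of the nucleolar genes at E13.5, -0.40 against -0.46. All 46 changes were negative, and 28 of the 46 genes lay lower in p18mKO2+ libraries without overlap, but 1 was called. Over all genes tested 49.4% were negative, 14.1% lay lower without overlap and 3.49% were called lower in that comparison. The ribosomal protein sums were 16940 to 23080 CPM in p18mKO2+ and 24970 to 27070 CPM in p18mKO2- libraries. S phase genes had a median of -0.83 and mitosis genes -0.79, with 16 of 20 and 11 of 17 called lower. In p18mKO2- tissue the medians for E16.5 over E13.5 were -1.21 for S phase, -1.42 for mitosis, -0.50 for the nucleolar genes and -0.25 for ribosomal proteins. These medians are side by side as descriptions, and no difference between lists was tested.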

How the data were processed

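Per the submitters' processing notes, reads were handled with cutadapt 3.4, STAR 2.7.2b and RSEM 1.2.31 on GRCm38 (mm10); which annotation release and strand setting were used is not stated. The authors deposited, per the file headers, expected counts, TPM, length and a posterior SD of the count for each gene. Expected counts, which share multi-mapped reads between genes, were rounded. Of 55487 identifiers 55141 had a symbol (GENCODE M21). After filterByExpr and TMM scaling, all 12 libraries entered 1 quasi-likelihood fit in edgeR 4.0.16 under R 4.3.3, each group having its own mean, which left 8 residual degrees of freedom; the common biological coefficient of variation was 0.311. SE is the absolute log2 change divided by the square root of F. The pipeline was tested on simulated counts. Values in every library are given for 13 members fixed by role and for the 6 with the smallest p among those called in each comparison. Up to 3 called genes of each other pathway list are named. Members and lists were chosen with earlier results of these data known. Of 14 promoter motifs looked at, the E-box is described in full. Same-numbered libraries deviated together in the stage comparison of p18mKO2- tissue (correlations 0.12, 0.16 and 0.29). There E16.5 replicate 1 correlated as much with E13.5 replicate 2 (0.12). The labels do not explain the numbers, so a pairing is not established. All values reported for that comparison come from the fit without a block, and the fit with a block is an alternative. Alternatives were RLE, DESeq2 1.42.0, limma-voom (limma 3.58.1), log2(TPM + 1) with limma, other filters, the replicate number as a block, covariates, the 6 libraries compared alone, and leaving out libraries. A library was taken to hold both sexes where Xist and summed Y-linked genes each exceeded 50 CPM. Figures were drawn with matplotlib 3.10.9.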

Additional observations from a re-analysis of the deposited data

How the results depend on the processing

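Every gene that fell at E13.5 or with stage in p18mKO2- tissue kept a negative change under all 23 alternatives. The number of members called for the p18 effect at E13.5, 16 as reported, was 4 on log2(TPM + 1), 1 without the libraries of both sexes, 1 with the Y-linked covariate and 3 with the ribosomal RNA covariate, and 1 to 17 leaving out 1 library. For the average p18 effect, 3 as reported, it was 11 with DESeq2, 0 on log2(TPM + 1), 0 without the libraries of both sexes, 0 with either covariate, and 0 to 4 leaving out 1 library. For the difference of the p18 effect it was 1 with DESeq2 and 0 to 1 leaving out 1 library. For the stage change in p18mKO2- tissue, 19 as reported, it was 11 to 20 leaving out 1 library, and in p18mKO2+ tissue it was 2 in the fit of 6 libraries. For the p18 effect at E16.5 it was 0 under all alternatives. The causes were not tested, and some fits also held fewer libraries. On TPM the median of all genes shifted by 0.13 at E13.5, 0.24 at E16.5, 0.18 on average and 0.10 for the difference; relative to all genes the members then stood at -0.49, 0.02, -0.21 and 0.40. With the replicate number as a block, 16 members were called at E13.5, 0 at E16.5, 3 on average, 0 for the difference, 23 for the stage change in p18mKO2- and 0 in p18mKO2+. In the comparisons other than the stage change in p18mKO2- tissue, at least 1 same-numbered pair correlated at 0.1 or less. Over all groups 11 of 18 same-numbered and 5 of 36 differently numbered pairs correlated above 0.1, 23 of 36 best matches had the same number, and for 2 of 12 libraries all best matches did, a hint of shared numbers from the data and not from the labels. Over all genes the count at E13.5 of 1810 was 927 to 2383 leaving out 1 library.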
